A study of Mus musculus with 4 samples.

Results

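The miR-297, miR-466, miR-467 and miR-669 family was measured by 71 of the 1900 mouse miRNA probes of the array. Members were all probes whose name begins with miR-297, miR-466, miR-467 or miR-669, whatever the letter or arm that follows. Most of the family is known as the Sfmbt2 cluster, and that label fits only in part. In RefSeq, 71 of the 81 genes with these numbers lie inside Sfmbt2 on chromosome 2, and the other 10 lie elsewhere. By name, 56 probes match only genes inside Sfmbt2, 9 match only genes elsewhere, 5 match both kinds, and the probe for miR-466a-5p matches none. The spots carry 80 names in all, because 7 of the 71 probes serve several family members at once, and a value of such a probe cannot be given to one of its names.

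Total RNA came from organoids grown out of mouse small intestinal crypts, taken after 5 days and after 1 day of culture, and from epithelial cells of villi and of crypts. The study set organoids beside the epithelium they are grown from. Each of the 4 groups had 1 array and each member 1 spot per array, so no test was possible, no p-value is given, and every difference below describes these arrays only. The sources used here do not state the strain, age or number of animals or the culture medium.

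The Sfmbt2 gene encodes a Polycomb group protein and is imprinted in mouse extraembryonic tissue, where the paternal copy is expressed. Its large intronic miRNA cluster, found in rodents, grew by tandem duplication and is known from mouse embryonic stem cells and placenta. The hairpins hold alternating U and G bases on one strand and A and C bases on the other. A miRNA recognises its targets mainly through the seed, a short stretch near its 5′ end, so family members with different seeds have different predicted targets.

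The mature sequences of 8 members with genes outside Sfmbt2 are given here, from RefSeq on GRCm38.p6. They are the only members whose mature sequence was found in the RefSeq set used. The sequences of the other members, among them all with genes inside Sfmbt2, were not examined. Capitals mark the seed, bases 2 to 8.
miR-466i-3p: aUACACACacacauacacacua
miR-466q: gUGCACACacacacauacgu
miR-467f: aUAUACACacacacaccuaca
miR-467g: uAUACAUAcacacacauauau
miR-466j: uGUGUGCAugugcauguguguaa
miR-466k: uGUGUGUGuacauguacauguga
miR-467h: aUAAGUGUgugcauguauaugu
miR-669n: aUUUGUGUguggaugugugu

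In the same order, these sequences lie at chr13:17747552-17747573 on the plus strand, chr3:28419988-28420007 plus, chr11:69635419-69635439 minus, chr5:34732872-34732892 minus, chr10:60960802-60960824 plus, chr3:85467396-85467418 plus, chr9:115381898-115381919 plus and chr3:115979905-115979924 plus. The first 4 hold ACACAC and the last 4 hold UGUGUG, whereas 39 of 1738 mouse mature sequences in the RefSeq set, 2.24%, hold either motif on the strand as written. The other family members are absent from that set, so this share does not count them. The uninterrupted stretch of alternating bases reached 12 in miR-466q and miR-467f and 7 in miR-466j and miR-467h. All 8 seeds differ, and within the RefSeq set only the seed of miR-467h was found in another mature miRNA, miR-668-5p. Seeds shared with family members absent from that set could not be seen. Over their whole length, seed included, any 2 of the 4 ACACAC members share a run of 11 to 14 bases, and any 2 of the 4 UGUGUG members share 7 to 11. Between an ACACAC and a UGUGUG member, 7 to 10 bases in a row are complementary. How far a probe of one member also binds another was not tested, and it limits every value below.

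Members were dim on all 4 arrays. Detection asked for an intensity more than 2 SD over the mean blank spot, which set a limit of 70.5 on the day 5, 82.3 on the day 1, 108 on the villus and 69.5 on the crypt array. Over the 70 members without a quality mark, the intensity ran from 65.3 to 145.4 with a median of 71.8 on the day 5 array, and from 74.2 to 395 with a median of 94.9 on the day 1 array. It ran from 92.2 to 379 with a median of 116 on the villus array and from 64.2 to 101 with a median of 69.97 on the crypt array. The median over all 1897 miRNA probes kept was 75.5, 101, 135 and 72.0 on the day 5, day 1, villus and crypt arrays, and the brightest reached 40320, 54579, 46366 and 39994. A large part of the family therefore lay within a few units of the detection limit.

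**Figure D1:**
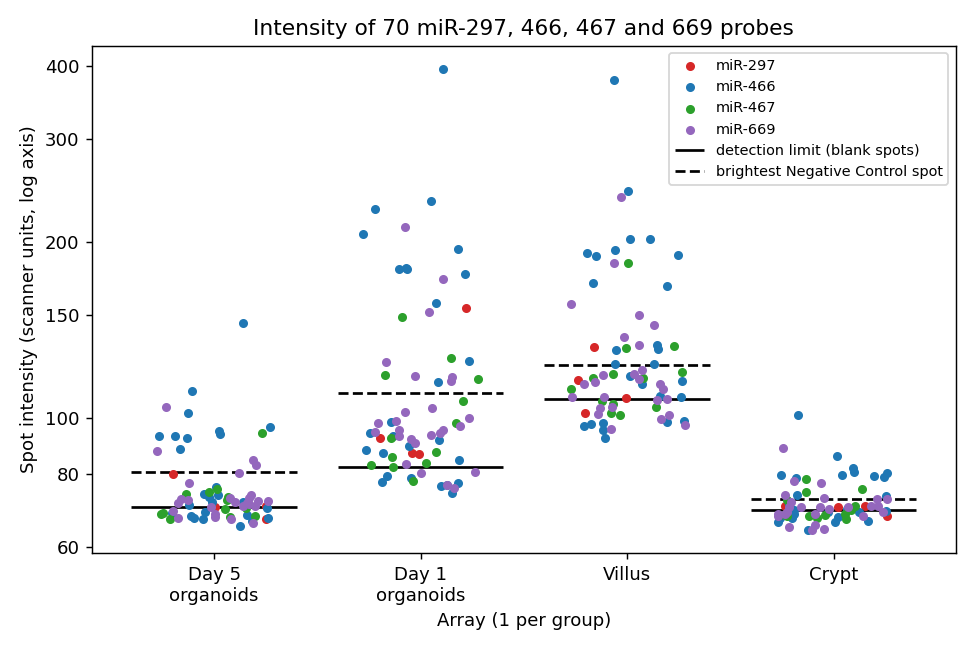
Spot intensity (scanner units, log axis) of 70 family probes on the day 5, day 1, villus and crypt arrays, 1 point per probe, coloured by miRNA number. Solid bars are the detection limits from blank spots, 70.5, 82.3, 108 and 69.5 in that order, and dashed bars are the brightest Negative Control spot of each array. Most points lie near the bars.

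Detection was counted as 44 of 70 members on the day 5 array, 62.9%, against 71.6% of all miRNA probes. It was 57 of 70 on the day 1 array, 81.4%, against 82.0% of all probes. On the villus array 49 members were detected, 70%, against 79.4% of all probes, and on the crypt array 37, 52.9%, against 66.8%. The day 1 array thus held the family's highest share detected and was the only array where that share came within 1 percentage point of all probes. Against a stricter bar, the brightest of the Negative Control spots, 15 members passed on the day 5, 24 on the day 1, 26 on the villus and 21 on the crypt array. The shares of all miRNA probes past that bar were 40.0%, 42.5%, 60.7% and 46.8%, so the family's shares, 21.4%, 34.3%, 37.1% and 30.0%, were lower on each array.

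All 4 arrays detected 32 members, 45.7%, against 60.5% of all miRNA probes, and 15 of these, 21.4% of the 70, also stood above every Negative Control spot on each array, against 36.1% of all miRNA probes. The 15 were miR-466f, miR-466f-3p, miR-466f-5p, miR-466h-3p, miR-466h-5p, miR-466i-3p, miR-466i-5p, miR-466j, miR-466m-3p, the probe shared by miR-466m-5p and miR-669m-5p, miR-467f, miR-669c-3p, miR-669f-5p, miR-669n and miR-669p-3p. Thus 10 of the 27 miR-466 probes, 1 of the 13 miR-467 probes, 4 of the 26 miR-669 probes and 0 of the 4 miR-297 probes belonged to this best-measured group.

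A further 12 members were detected on 3 arrays. The crypt array missed 8 of them: miR-297b-5p, miR-466d-3p, miR-466d-5p, miR-466o-3p, miR-467c-3p, miR-669l-5p, the probe of miR-669a-5p and miR-669p-5p, and the probe of miR-466b-3p, miR-466c-3p and miR-466p-3p. miR-669a is known from mouse cardiac progenitors, where it was reported to repress MyoD. The day 5 array missed the other 4: miR-466n-5p, miR-669b-5p, miR-669d-3p and the probe of the 3p arms of miR-297a, miR-297b and miR-297c.

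The 7 members detected on 2 arrays were all detected on day 1. Their other array was villus for miR-467b-5p, miR-669e-3p and the probe of miR-466a-3p and miR-466e-3p, day 5 for miR-669d-5p, miR-669l-3p and miR-669o-5p, and crypt for miR-297c-5p. Of the 9 detected on 1 array, 6 were detected on day 1: miR-466k, miR-467c-5p, miR-467e-3p, miR-467e-5p, miR-467h and miR-669h-3p. The villus array alone detected miR-466n-3p and miR-467a-5p, and the day 5 array alone detected miR-669m-3p. No member was detected on the crypt array alone.

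No array detected the remaining 10: miR-466a-5p, miR-466e-5p, miR-466l-3p, miR-466l-5p, miR-466p-5p, miR-467d-5p, miR-669i, miR-669j, miR-669k-3p and the probe of miR-466b-5p and miR-466o-5p. miR-466l was reported in mouse macrophages to act on the interleukin-10 message. miR-669h-5p, the 71st probe, carried a quality mark on the crypt array and was left out of the counts.

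**Figure D2:**
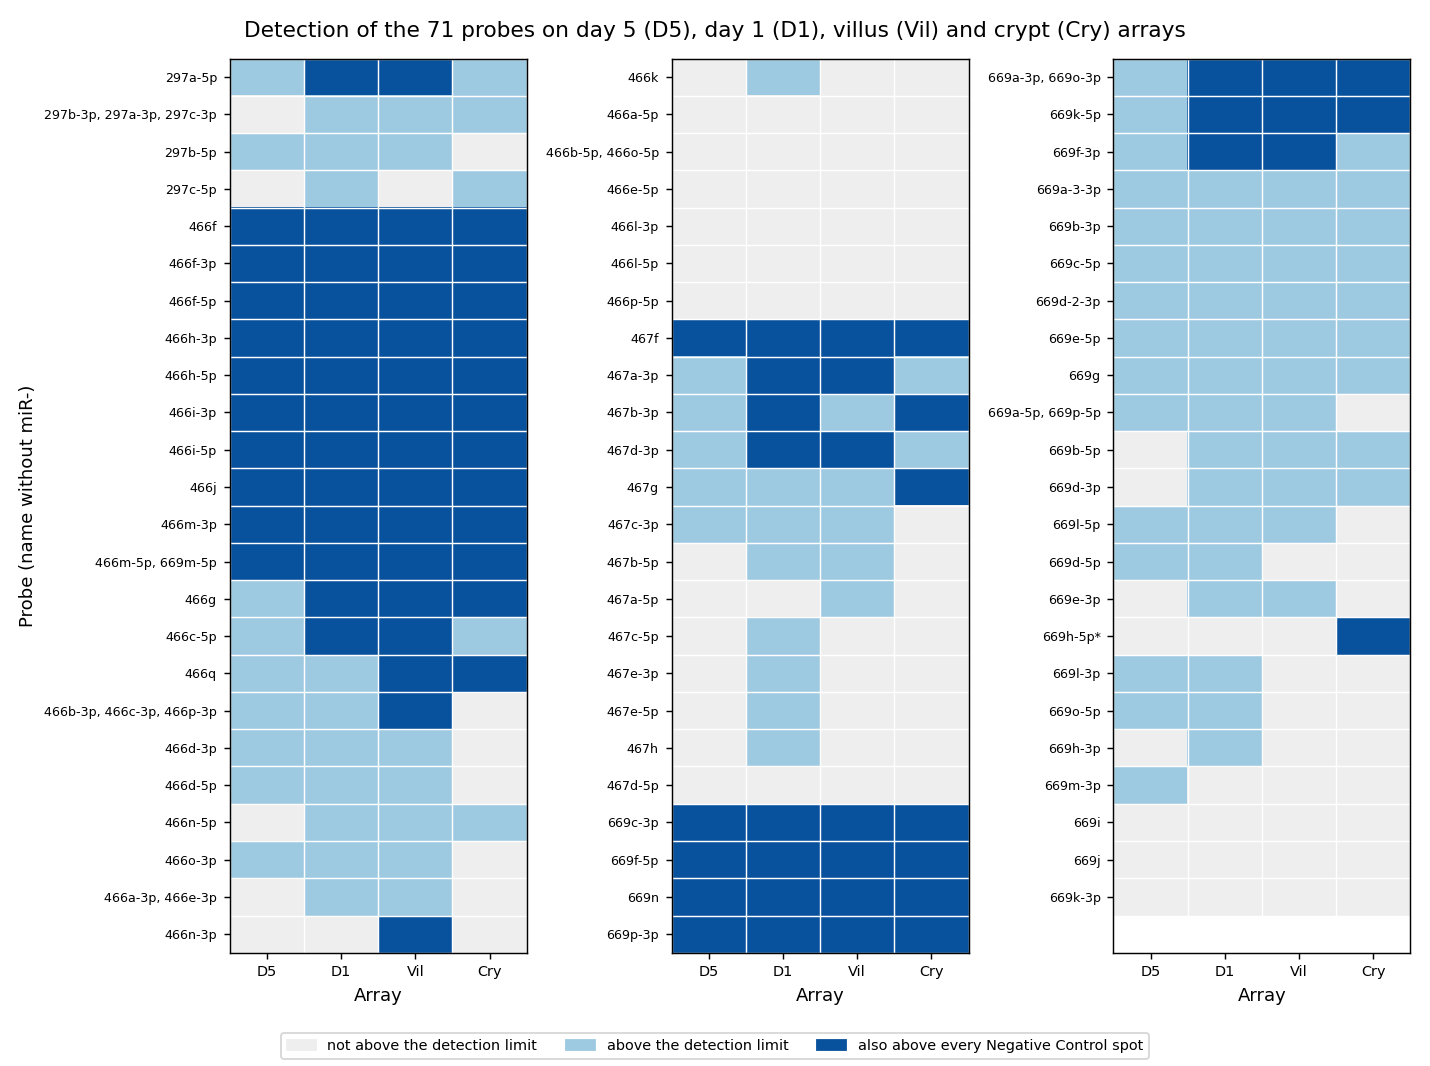
Map of all 71 probes by array (day 5, day 1, villus, crypt from left to right), in 3 panels. Grey is not above the detection limit, light blue is above it, and dark blue is also above every Negative Control spot. The asterisk marks miR-669h-5p, left out for its quality mark. The 32 members detected on all 4 arrays have no grey cell, and 10 members are grey throughout.

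By number, the miR-669 probes were detected on 19, 22, 18 and 15 of 26 spots on the day 5, day 1, villus and crypt arrays, and the miR-466 probes on 17, 20, 20 and 14 of 27. The miR-467 probes gave 6, 11, 8 and 5 of 13, and the miR-297 probes 2, 4, 3 and 3 of 4. Probes that match only genes outside Sfmbt2 were detected on 7, 9, 7 and 7 of 9 spots, and those that match only genes inside it on 33, 43, 37 and 25 of 55. These groups are small and share repeat sequence, so the shares are a description.

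Each hairpin can give a miRNA from its 5p and from its 3p arm. The 5p probes were detected on 16, 22, 18 and 13 of 29 spots on the day 5, day 1, villus and crypt arrays, and the 3p probes on 20, 25, 23 and 16 of 29. Among 32 hairpins with a probe for each arm, some of them sharing a probe, both arms were detected for 13, 21, 17 and 9 hairpins. Only the 3p arm was detected for 8, 7, 10 and 8 hairpins and only the 5p arm for 5, 3, 3 and 5.

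Both arms were detected on all 4 arrays for 6 hairpins, those of miR-466f, miR-466h, miR-466i, miR-466m, miR-669c and miR-669f. Net intensity, the spot minus the mean of the blank spots, was used to follow the arms. The 2 probes of a hairpin may differ in brightness for the same amount of RNA, so only the change of their log2 ratio between arrays is read. For miR-669f the log2 5p minus 3p value was 0.44 on the day 5, 1.27 on the day 1, 0.18 on the villus and 1.03 on the crypt array, a range of 1.09. For miR-466i it was 1.196, 2.01, 1.63 and 1.47 in the same order, a range of 0.82, and the day 1 array had the highest value for both hairpins.

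For miR-669c the value was -3.11 on the day 5, -3.01 on the day 1, -2.91 on the villus and -2.31 on the crypt array. For miR-466m, whose 5p probe also serves miR-669m-5p, it was 0.12, 0.61, 0.03 and 0.25 in that order. The ranges over the 4 arrays were 0.80 and 0.57, with the crypt array highest for miR-669c and the day 1 array highest for miR-466m. The miR-669c-5p spot stood only 4.17 above the blank mean on the day 5 and 4.28 on the crypt array, where the blank SD was 1.19 and 1.02. It passed the brightest Negative Control spot on no array. The crypt value of miR-669f rests on a 3p spot 5.15 above the blank mean. Changes that involve these spots are uncertain.

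**Figure D3:**
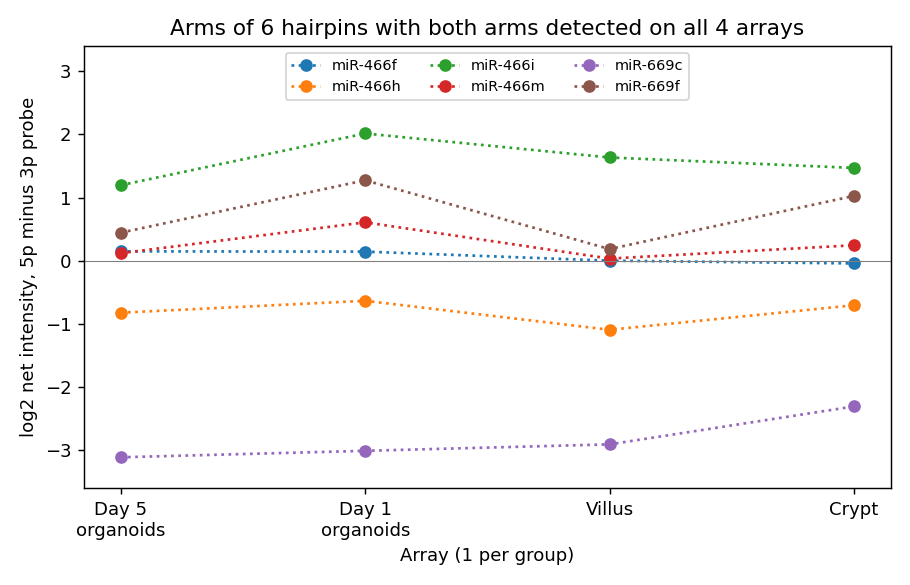
Log2 ratio of net intensity, 5p probe minus 3p probe, for the 6 hairpins with both arms detected on the day 5, day 1, villus and crypt arrays; dotted lines join the points of 1 hairpin. Vertical position depends on the probes, and the change between arrays is what can be read: the day 1 points of miR-466i (2.01) and miR-669f (1.27) are their highest. The day 5 and crypt points of miR-669c and the crypt point of miR-669f rest on a spot near the blank level.

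The measurements were compared between arrays on 2 scales. The first, called level, is the log2 intensity after correction with an offset of 50 and quantile normalization over all miRNA probes. The offset holds down differences of dim probes such as these. The second, called net difference, is the log2 difference of net intensity after each array was scaled to the median of the miRNAs detected on all 4. It has no offset, is noisy for spots near the blank level, and was chosen after the data were seen. At least 2-fold is used as the mark of a large difference. On the level scale the offset can keep dim members below that mark when their net difference is past it. For day 1 minus crypt, miR-297a-5p had a net difference of 2.13 and a level difference of only 0.66. Level counts of members at that mark are therefore not read as stability. The shares of all miRNA probes beside them include far brighter probes.

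Several facts of the arrays bear on all comparisons. Spike Control spots stood 8578, 16422, 28361 and 8540 above the blank spots on the day 5, day 1, villus and crypt arrays. No label gives the slide. The slide numbers in the names of the deposited files put the other 3 arrays on a slide that did not hold the day 5 array, and by them a difference of slide and a difference of day 5 cannot be told apart. The 8 epithelial marker miRNAs, miR-192, miR-194, miR-215 and the miR-200 family, were detected on every array. The 6 mesenchyme and smooth muscle markers were detected on 3, 5, 6 and 5 spots, with a summed net intensity per 1000 units of Spike Control signal of 4.77, 6.45, 833 and 11.5. The 5 leukocyte markers were detected on 3, 4, 5 and 4 spots, with sums of 2.78, 3.39, 56.8 and 3.31. The 2 endothelium markers had sums of 0.47, 0.78, 23.5 and 0.81, and the 2 red blood cell markers 1.71, 1.79, 75.2 and 1.61. The villus array thus had by far the highest sum of each non-epithelial list, and their part in the family's values was not tested. In such samples, fewer cells of a type and less RNA per cell cannot be told apart.

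The first question was whether the family differs between crypts and organoids 1 day into culture. On the level scale 0 of 57 members detected on either array were at least 2-fold higher on day 1. Of all miRNA probes 5.2% were. At least 2-fold lower were 0 members and 6.2% of all miRNA probes. The offset holds down the members' counts, so these shares do not show a steadier family. The 37 members detected on both arrays had a median day 1 minus crypt level of 0.13, against 0.01 for all miRNA probes, and ranged from -0.24 to 0.66, with 29 above 0 and 8 below. The median net difference was 0.35 for members and -0.10 for all miRNA probes. The members' own median was above 0 under each of 11 ways of processing except scaling to the 75th percentile, which gave -0.24. The members' median minus that of all probes was 0.06 to 0.45 under the 11. Several of the 11 differ only by a factor per array, which cancels in that subtraction, so they are not separate checks of it. By number, the median level difference was 0.24 for miR-466, 0.07 for miR-669, 0.03 for miR-467 and -0.02 for miR-297. Some control probes shifted too. The Negative Control 3 median was 107 on day 1 and 69.6 in crypt, where the blank means were 78.6 and 67.4. The other Negative Control spots had medians of 80.4 and 67.4. Of the 57 members detected on day 1, 24 were brighter than every Negative Control spot. The part of such signal in the members' values was not tested.

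miR-297a-5p had intensities of 80.1 on day 5, 154 on day 1, 132 in villus and 70.5 in crypt. Its day 1 minus crypt level was 0.66 and its net difference 2.13, but the crypt spot stood only 3.04 above the mean of the blank spots, whose SD was 1.02. miR-466i-5p was far from the limit on every array, at 145.4 on day 5, 395 on day 1, 379 in villus and 101 in crypt, and its level was 0.64 higher on day 1 than in crypt. Its normalized level was 7.51, 8.09, 7.35 and 7.45 in the same order, so the day 1 array was the one that stood out.

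miR-466f-5p had 96.4 on day 5, 207 on day 1, 202 in villus and 80.5 in crypt, with a day 1 minus crypt level of 0.40 and a net difference of 0.79. The probe of miR-466m-5p and miR-669m-5p had 95.1 on day 5, 228 on day 1, 193.97 in villus and 82.1 in crypt, also with its highest intensity on day 1. Both miR-466i-5p and miR-466f-5p come from 5p arms, and the 13 5p members measured on both arrays had a median level difference of 0.24, against 0.11 for the 16 3p members. That contrast between arms was seen in the data and not tested.

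A few members ran the other way. miR-467g, whose sequence is given above, had 72.3 on day 5, 98.0 on day 1, 119 in villus and 74.6 in crypt. Its day 1 minus crypt level was -0.24 and its net difference -1.08. miR-466q had 73.7, 98.2, 131 and 73.6 on the day 5, day 1, villus and crypt arrays, with a level difference of -0.16 and a net difference of -0.84 for day 1 minus crypt. miR-297c-5p and miR-669g followed with levels of -0.13 and -0.07, and both had crypt spots near the limit, at 70.7 each.

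Where only the day 1 array detected a member, its difference is a lower bound. miR-467c-3p had 73.2 on day 5, 107 on day 1, 117 in villus and 68.0, below the limit, in crypt. Its day 1 level was at least 0.25 higher than in crypt on the log2 scale.

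On the net scale, 5 of 57 members were at least 2-fold higher on day 1, 8.77%, where 12.1% of all miRNA probes were, and 2 were at least 2-fold lower, 3.51%, where 21.5% were. The 5 were miR-297a-5p, miR-467a-3p, miR-467c-3p, miR-669d-5p and the probe of miR-669a-5p and miR-669p-5p, and the 2 were miR-297c-5p and miR-467g. Of the 5, the values of miR-467c-3p, miR-669d-5p and the shared probe are bounds. Of the 57 members 37 were detected on both arrays, and of 1597 miRNA probes 1226 were. A probe detected near the limit on 1 array only could not be counted as a large difference. The smaller shares are therefore not read as a trait of the family.

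The second comparison followed the culture, day 5 against day 1. On the level scale 0 of 58 members were at least 2-fold higher on day 5, where 0.319% of all miRNA probes were. At least 2-fold lower were 0, where 0.893% were. Here too the offset limits the members' counts. The 43 members detected on both arrays had a median day 5 minus day 1 level of -0.15, against 0.01 for all miRNA probes, and ranged from -0.61 to 0.08, with 6 above 0 and 37 below. The median was below 0 under each of 11 ways of processing except scaling to the 75th percentile, where it was 0.09. The members' median minus that of all probes was below 0 under all 11, from -0.64 to -0.09, though the 11 are not separate checks of it. Since this comparison shares the day 1 array with the one before it, the 2 are not independent. The Negative Control 3 median was 77.9 on day 5 and 107 on day 1, where the blank means were 68.1 and 78.6. Its part in the members' values was not tested here either.

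On the net scale the median was -0.66 for members and -0.02 for all miRNA probes, with 42 of 43 members below 0. At least 2-fold lower on day 5 were 19 of 58 members, 32.8%, where 6.7% of all probes were, and 1 was at least 2-fold higher, where 5.36% were. The 19, bounds included, were 9 miR-669, 5 miR-467, 3 miR-466 and 2 miR-297 probes, most of them within a few units of the detection limit on day 5. The 1 at least 2-fold higher was miR-669m-3p, with 71.9 on day 5 and 80.4, below the limit, on day 1, so that its value is a bound.

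miR-466i-5p had the largest level difference among probes with 1 name, -0.58, with a net difference of -0.64, close to the members' median of -0.66. miR-669f-5p had 84.7 on day 5, 173 on day 1, 156 in villus and 77.9 in crypt, a day 5 minus day 1 level of -0.42 and a net difference of -1.11. miR-466f-5p had a level difference of -0.42 and a net difference of -0.78. Like miR-466i-5p, these are 5p arms whose intensity was higher on day 1 than on the other 3 arrays.

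By number, the median day 5 minus day 1 level was -0.27 for miR-466, -0.20 for miR-467, -0.19 for miR-297 and -0.11 for miR-669, and all 18 miR-669 probes measured on both arrays were below 0. On the net scale the order differed, with medians of -0.63, -1.05, -0.76 and -0.70. Over the 43 members, the level difference had a Spearman correlation of -0.69 with mean level, and the net difference one of -0.03 with mean net level. The part of brightness in the level ranking was not tested. The members with the highest values were close to 0: miR-466i-3p at 0.08, miR-297b-5p and miR-466o-3p at 0.02 each, and miR-467f at 0.01. On the net scale miR-466i-3p stayed above 0, at 0.18, while the other 3 were below it, at -0.27, -0.22 and -0.03. miR-466i-3p had 102 on day 5, 157 on day 1, 190.2 in villus and 79.5 in crypt. Its day 5 minus day 1 value turned below 0 with scaling to the median (-0.26), to the Spike Control spots (-0.28) and to 8 epithelial miRNAs (-0.67), in the deposited values (-0.086) and with the background column subtracted (-0.0083). Under each of these the value of miR-466i-5p was lower than that of miR-466i-3p.

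miR-669b-5p and miR-669d-3p were detected on day 1 and not on day 5. Their intensities were 68.4 and 69.3 on day 5 against 98.0 and 94.3 on day 1, and their day 5 minus day 1 levels were bounds of -0.17 and -0.12.

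**Figure D4:**
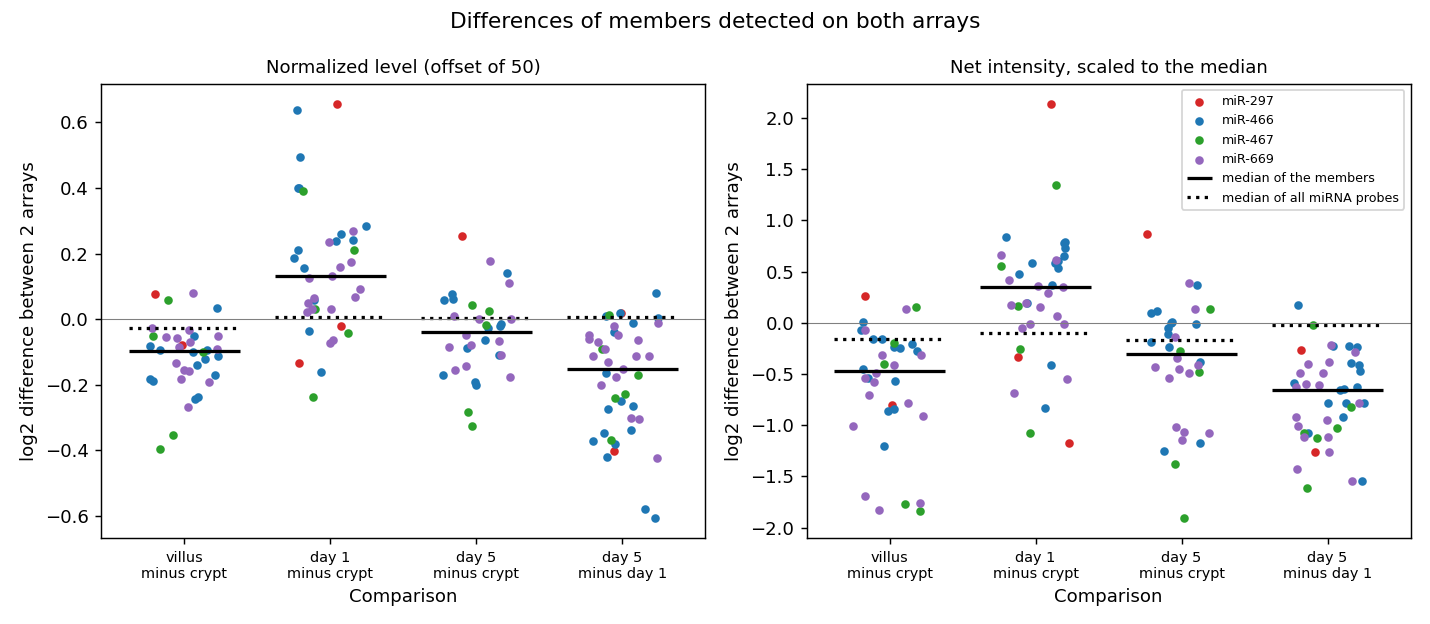
Log2 differences of members detected on both arrays in 4 comparisons, 1 point per probe, coloured by miRNA number; left on the level scale, right as net differences. Solid bars are members' medians and dotted bars the medians of all miRNA probes. For day 5 minus day 1 the members' median is -0.15 on the left and -0.66 on the right, below the dotted bar in both.

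The third comparison set organoids of day 5 against crypts. On the level scale 0 of 49 members were at least 2-fold higher on day 5, where 4.37% of all miRNA probes were. At least 2-fold lower were 0, where 5.12% were. The offset again limits the members' counts. The median over the 32 members detected on both arrays was -0.04, against 0.00 for all miRNA probes, with 12 above 0 and 20 below and a range of -0.33 to 0.25. Scaling by the Spike Control spots, by 8 epithelial miRNAs or by the median put it above 0. Relative to all probes it was -0.14 to -0.01 under the 11 ways of processing.

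On the net scale 13 of 49 members were at least 2-fold lower on day 5, 26.5%, where 23.9% of all miRNA probes were, and 0 were at least 2-fold higher, where 10.5% were. miR-467g had a level difference of -0.33 and a net difference of -1.90. miR-467b-3p, of a miRNA reported to act on lipoprotein lipase in mouse macrophages, had 74.7 on day 5, 116 on day 1, 119.9 in villus and 75.4 in crypt, with values of -0.28 and -1.38. For miR-466q the level difference was -0.20, and for miR-466g, with 74.2 on day 5, 125 on day 1, 131 in villus and 73.8 in crypt, it was -0.19. These 4 had almost the same raw intensity on both arrays, and the day 5 array had the higher blank level and the brighter distribution.

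Highest relative to crypt were miR-297a-5p at 0.25 and miR-669n at 0.18. miR-669n, whose sequence is given above, had 83.1 on day 5, 125 on day 1, 138 in villus and 72.7 in crypt. miR-466i-3p and miR-669f-3p followed, with levels of 0.14 and 0.11, and all 4 were above 0 on the net scale too.

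The fourth comparison set villus against crypt, the differentiated and the proliferating compartment of the epithelium. The villus array also held far more signal of non-epithelial markers. Per 1000 units of Spike Control signal, mesenchyme and smooth muscle gave 833 in villus and 11.5 in crypt, and leukocytes 56.8 and 3.31. The difference is therefore not one of epithelial cells alone. On the level scale 0 of 50 members were at least 2-fold higher in villus, where 3.84% of all miRNA probes were. At least 2-fold lower were 0, where 3.33% were. These counts of members are also limited by the offset. The 36 members detected on both arrays had a median villus minus crypt level of -0.10, against -0.03 for all miRNA probes, with a range of -0.40 to 0.08 and 32 of 36 below 0. Scaling by the Spike Control spots or by 8 epithelial miRNAs put the median above 0, and relative to all probes it was -0.33 to -0.03 under the 11 ways of processing. Raw intensities of most members were higher on the villus array, as were those of the blank spots and of miRNAs as a whole.

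On the net scale the median was -0.47 for members and -0.16 for all miRNA probes, and 8 of 50 members were at least 2-fold lower in villus, 16%, where 19.6% of all probes were. At least 2-fold higher were 0, where 9.53% of all probes were. miR-467b-3p had a level difference of -0.40 and miR-467g one of -0.35, with net differences of -1.84 and -1.77. miR-669f-5p was at -0.27. miR-466j, a UGUGUG member with its sequence given above, had 92.9 on day 5, 179.6 on day 1, 170.4 in villus and 79.3 in crypt, and a villus minus crypt level of -0.24.

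The highest villus minus crypt levels were 0.08 for miR-669f-3p and miR-297a-5p, 0.06 for miR-467a-3p and 0.04 for miR-466c-5p. miR-669f-3p had 80.3 on day 5, 118 on day 1, 149.8 in villus and 72.6 in crypt, whereas the 5p arm of the same hairpin was among the lowest on the level scale. The arms had net differences of 0.14 for 3p and -0.71 for 5p, and with scaling to the median they were closer, at 0.19 for 3p and 0.14 for 5p. miR-466n-3p was the only member detected in villus and on no other array that also stood above the Negative Control spots. It did so barely, at 123.6 against 123.1 for the brightest of them, with a blank SD of 3.66. The probe of miR-466n-3p had 67.2 on day 5, 77.6 on day 1 and 68.2 in crypt. The level gives it a bound of at least 0.06 over crypt.

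Members kept much of their order between arrays. Across the 32 detected on all 4, the Spearman correlation of net intensity was 0.855 for day 1 and crypt, the lowest of the 6 pairs, and 0.958 for day 5 and villus, the highest, where over all miRNA probes the 6 pairs ran from 0.794 to 0.948. These are correlations across probes that share array and repeat sequence, not replicates. Day 5 minus day 1 and villus minus crypt share no array, and the Spearman correlation of these level differences was 0.08 over the 32 members and -0.36 over all miRNA probes detected on all 4.

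The widest range of level over the 4 arrays was 0.73, for miR-466i-5p, followed among probes with 1 name by 0.66 for miR-297a-5p and 0.54 for miR-669f-5p. The narrowest among members detected on all 4 were miR-669e-5p at 0.11 and miR-669d-2-3p and miR-669b-3p at 0.12 each. miR-669e-5p had 71.6 on day 5, 96.9 on day 1, 120.6 in villus and 70.7 in crypt, within 15 units of the limit on every array, where the offset leaves little room for a difference.

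The family was also set beside 2 other lists. Of the 29 other probes whose RefSeq sequence holds UGUGUG or ACACAC, the 19 and 23 detected on both arrays had median levels of 0.06 for day 1 minus crypt and -0.03 for day 5 minus day 1, and median net differences of 0.13 and -0.32. Of the 114 probes of the imprinted Dlk1-Dio3 locus, another large miRNA cluster, the 56 and 65 detected on both arrays had median levels of -0.06 and 0.02 and net differences of -0.39 and -0.10. The members' values, 0.13 and -0.15 on the level and 0.35 and -0.66 on the net scale, lay beyond both lists in both comparisons, with the repeat-bearing probes nearer. Both comparisons use the day 1 array. For day 5 minus crypt the net medians of members, repeat-bearing and Dlk1-Dio3 probes were -0.31, -0.40 and -0.36. For villus minus crypt they were -0.47, -0.36 and -0.43, so the family did not stand apart from the lists there. The only other miRNA gene found inside Sfmbt2, Gm25285, had no probe among those used.

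**Figure D5:**
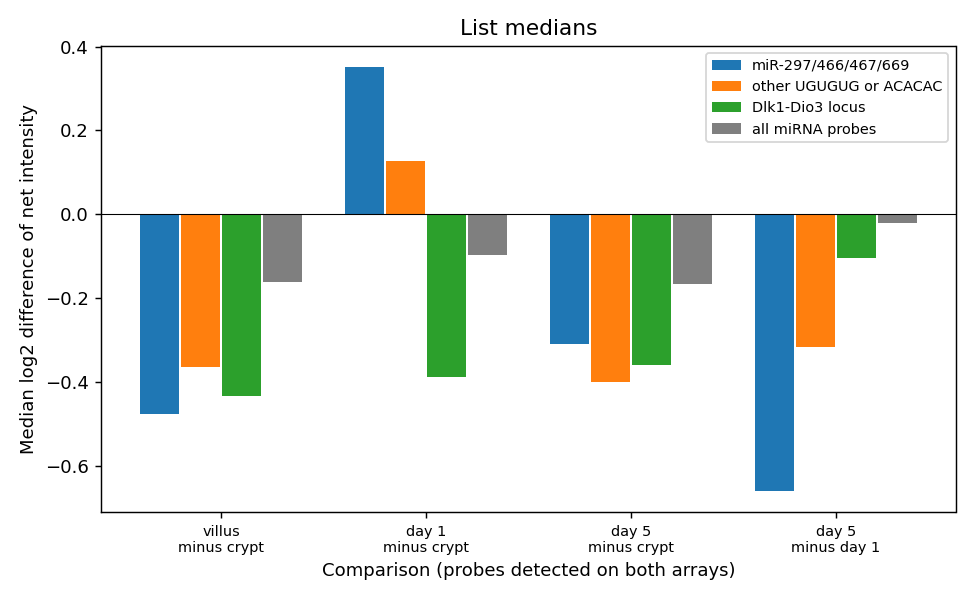
Median log2 net difference in 4 comparisons for the family, for the other probes with UGUGUG or ACACAC, for the Dlk1-Dio3 locus and for all miRNA probes, over probes detected on both arrays. The family's bar is the highest for day 1 minus crypt (0.35) and the lowest for day 5 minus day 1 (-0.66).

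The following 3 of the 29 repeat-bearing probes outside the family are shown because their sequences are as repetitive as those printed for members. Capitals again mark bases 2 to 8.
miR-574-5p: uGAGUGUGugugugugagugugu
miR-1187: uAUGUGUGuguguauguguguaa
miR-3082-5p: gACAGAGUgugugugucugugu

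They lie at chr5:64970328-64970350 plus, chr5:82798964-82798986 minus and chr17:25831406-25831427 minus on GRCm38.p6. miR-574-5p had 121 on day 5, 219 on day 1, 268 in villus and 84.9 in crypt. miR-1187 had 98.3, 189, 218 and 79.6, and miR-3082-5p had 87.5, 159, 175 and 79.3 in the same order. Their day 1 minus crypt levels were 0.33, 0.29 and 0.09. These 3 do not stand for their list, in which 11 of the 19 probes detected on both arrays were above 0 and 8 below. The largest differences of that list were lower on day 1, at -1.78 for let-7b-5p, -0.81 for let-7k and -0.54 for miR-3062-3p. The members with printed sequences and values on both arrays split by strand of the repeat: miR-466j and miR-669n, with UGUGUG, were both at 0.24, and miR-466i-3p, miR-467f, miR-466q and miR-467g, with ACACAC, were at 0.06, 0.03, -0.16 and -0.24. This grouping was made after the values were seen, rests on 6 members, and was not tested.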

How the data were processed

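Arrays with 1 colour (Cy5, miRCURY LNA labelling kit, per the labels) held 3200 spots each. The deposited scanner tables give spot intensity on a linear scale, combined by the authors from scans at 3 gains, per the file headers. The sources used here name neither the array's maker nor its image software. The deposited processed table was checked to be a straight-line function of intensity minus the blank mean of each array.

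Normexp with an offset of 50, a log2 transform and quantile normalization were applied to the intensities of 1897 miRNA probes (limma 3.58.1, R 4.3.3). The steps were tried on simulated arrays, all drawn from the crypt array with the same blank level. Recovery of changes was required there only of probes far brighter than any member on the crypt array, so the trial does not cover probes as dim as these. The column headed background follows its own spot and was not subtracted. The 3 quality-marked probes were left out. Detection used 896 blank spots, the highest and lowest 5% trimmed. Where 1 array detected a probe, the difference is a bound. Precision is limited by 1 array per group, 1 spot per member on each array and the members' low signal.

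The members and lists were chosen with earlier results of these data known. Members named with values are, per comparison, the 4 largest differences each way and the 2 largest bounds each way, the 4 widest and narrowest level ranges and the 4 hairpins whose arms varied most. Probes with several names are given without differences between arrays. Other members are named to account for detection or for a count. Alternatives were other scalings, cyclic loess, the background column, the deposited values, other detection bars, and net intensity.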

Additional observations from a re-analysis of the deposited data

Results flagged for a closer look

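The Negative Control 3 spots, control probes that enter none of the comparisons, were brighter than the detection limit set by blank spots on all 4 arrays. Their median intensity was 77.9 on the day 5, 107 on the day 1, 118 on the villus and 69.6 on the crypt array, against limits of 70.5, 82.3, 108 and 69.5. The medians of the other Negative Control spots were 68.1, 80.4, 102 and 67.4, below those limits. Of the 44, 57, 49 and 37 members detected on these arrays, 15, 24, 26 and 21 were brighter than every Negative Control spot.

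miR-669h-5p, left out for a quality mark on 1 of 3 gains of the crypt array, had an intensity of 123 there, above the limit of that array. It had 66.7 on the day 5, 75.2 on the day 1 and 94.7 on the villus array, all below their limits.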

How the results depend on the processing

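No paired analysis was possible because each group had 1 array. The members' median minus that of all probes kept its sign in all 4 comparisons under all 11 ways of processing. Several of the 11 differ only by a factor per array, which cancels in this subtraction, so their agreement was fixed in advance. The members' own values moved as follows; the cause was not tested. With scaling to the median, the median log2 difference was 0.28 for day 1 minus crypt and 0.079 for day 5 minus crypt, with 1 member at least 2-fold higher in villus than in crypt (2% against 16.4% of all probes), 4 higher on day 1 than in crypt (7.02% against 12.4%) and 1 lower on day 5 than on day 1 (1.72% against 3.95%). With the 75th percentile, it was -0.63 for villus minus crypt (5 lower, 10% against 7.04% of all probes), -0.24 for day 1 minus crypt (1 higher, 1.75% against 7.64%), -0.14 for day 5 minus crypt and 0.093 for day 5 minus day 1. With the Spike Control spots, it was 0.91 for villus minus crypt (25 higher), 1.91 for day 1 minus crypt (48 higher), 0.80 for day 5 minus crypt (14 higher) and -1.12 for day 5 minus day 1 (35 lower), which are 50%, 84.2%, 28.6% and 60.3% of members against 58.1%, 64.5%, 44.0% and 19.2% of all probes. With 8 epithelial miRNAs, it was 1.03 (29 higher), 3.08 (57 higher), 1.58 (36 higher) and -1.51 (51 lower) in the same order, which are 58%, 100%, 73.5% and 87.9% of members against 62.4%, 86.0%, 73.4% and 43.0% of all probes. With the deposited values, 6 were lower in villus than in crypt (12% against 12.2% of all probes) and 20 were higher on day 1 than in crypt (median 0.89; 35.1% against 26.1%). There, 1 was higher (2.04% against 16.3%) and 6 were lower (12.2% against 17.3%) on day 5 than in crypt, and 1 was higher (1.72% against 2.93%) and 27 were lower (46.6% against 12.7%) on day 5 than on day 1 (median -0.92). With net intensities, an alternative added after seeing the data, the medians were -0.47 (8 lower), 0.35 (5 higher, 2 lower), -0.31 (13 lower) and -0.66 (1 higher, 19 lower). Brighter than every Negative Control spot, also added, were 15 members on the day 5, 24 on the day 1, 26 on the villus and 21 on the crypt array. Among values of single named members, 241 moved by over 0.1 on the log2 scale and 96 moved by less.

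The median over all miRNA probes itself ranged from -0.29 to 1.35 for villus minus crypt, -0.33 to 2.63 for day 1 minus crypt, -0.17 to 1.72 for day 5 minus crypt and -0.87 to 0.20 for day 5 minus day 1. Of the named members' differences, 3 of 44 changed sign on the net scale, 7 of 44 with cyclic loess and 13 of 42 with 8 epithelial miRNAs. Low signal over background limits the family throughout: 11, 23, 11 and 2 members stood at least 10 times as far above the blank mean as the detection limit did, on the day 5, day 1, villus and crypt arrays. These were 15.7%, 32.9%, 15.7% and 2.86% of the 70 members, against 27.1%, 38.3%, 33.5% and 16.9% of all miRNA probes.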
